A study of Oryza sativa with 9 samples.

Results

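Wild-type (WT) developing seeds of rice (Oryza sativa) were profiled by RNA-seq in 3 libraries, out of 9 libraries and 3 genotypes in the whole study. The 3 WT libraries were chosen by the start of their column names, WT-1, WT-2 and WT-3, and cover 55986 gene loci. The seeds were dehulled and 10 to 14 days old, counted from flowering, and came from plants of the unmutated genotype, kept in growth chambers at 27 °C under a cycle of 12 h light and 12 h darkness. Total RNA of whole seeds was used, so endosperm, embryo, aleurone and seed coat were measured together. The mutant lines of the study, P1MH with the RBP-P change G401S and P3MH with A252T, are not described here, and their columns served to recover exon lengths alone. The design text calls the libraries of a genotype biological repeats. All errors below are SD over the 3 WT libraries.

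At this stage the rice endosperm fills with starch and with storage proteins. Glutelins, the main storage proteins of rice, are made on the endoplasmic reticulum (ER), pass through the Golgi and end in vacuolar protein bodies, where they are cleaved. Prolamines are smaller proteins that stay in the ER lumen as separate protein bodies, and they are encoded by families of short genes. Starch is built in amyloplasts from ADP-glucose, whose carbon arrives as sucrose. In bulk RNA, fewer cells of a type and less RNA per cell cannot be told apart.

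Levels are in RPKM as deposited, that is, reads divided by exon length in kilobases and by the mapped reads of the library, which allows loci to be compared per length. The spacing of the values gave 6814570 mapped reads in WT-1, 7498434 in WT-2 and 7083494 in WT-3, of which 91.3 to 91.7% lay in the loci. At 1 kilobase of exon, 3 reads were worth 0.40 to 0.44 RPKM. Among values under 10 reads, 27.8 to 31.7% lay on steps of 0.5 read. Library WT-1 stood apart from the others at a group of highly expressed loci on chromosome 5, described below, so many results that include these loci are given per library.

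The transcriptome was concentrated in few loci. The highest locus, LOC_Os02g15169, held 5.996 ± 0.0558% of all RPKM, and the 10 highest by mean RPKM held 30.5% in WT-1, 33.9% in WT-2 and 32.004% in WT-3. The 100 highest by mean held 51.6% in WT-1, 56.1% in WT-2 and 53.7% in WT-3, and the 1000 highest 71.7 ± 1.53%. Ranked within each library, reaching 50% of all RPKM took 77 loci in WT-1, 40 in WT-2 and 56 in WT-3, and reaching 90% took 5374, 4859 and 4995 loci. By the same ranking, 8 loci were among the 10 highest of all 3 libraries, 25 among the 30 highest and 82 among the 100 highest.

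**Figure D1:**
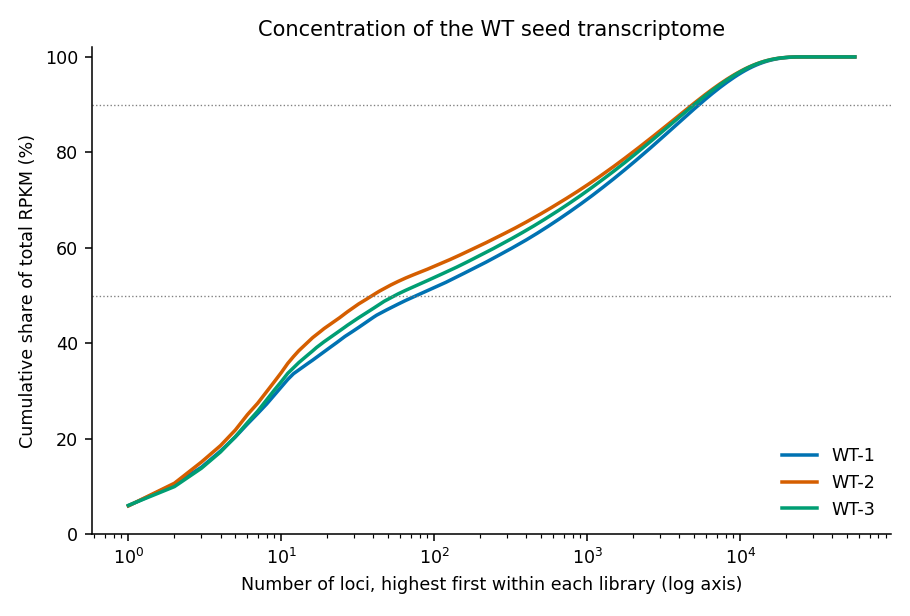
Cumulative share of total RPKM (y axis, %) against the number of loci taken from the highest down within each WT library (x axis, log scale), 1 line per library, with dotted lines at 50% and 90%. From 5 loci on, the line of WT-1 runs lowest. It crosses 50% at 77 loci, against 40 in WT-2 and 56 in WT-3. The lines meet towards the low loci.

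By mean RPKM, 11 loci lay at 10000 RPKM or above and together held 32.4% of the total in WT-1, 35.8% in WT-2 and 33.7% in WT-3. A further 34 loci between 1000 and 10000 RPKM held 14.6 ± 0.747%, and 400 loci between 100 and 1000 RPKM held 15.8 ± 0.625%. The class of 10 to 100 RPKM was broad, with 5582 loci and 27.5 ± 1.38% of the total. The 10210 loci between 1 and 10 RPKM held 7.57 ± 0.476%, and the 10868 loci above 0 and under 1 RPKM held 0.561 ± 0.0531%. In all, 16237 loci, 29.002% of the table, had a mean of at least 1 RPKM. A total of 28881 loci (51.6%) were listed at 0 in all 3 libraries, and 3531 loci were above 0 in 1 library, at a median of 0.0402 RPKM. At these depths, a value of 0 allows a level below that of 3 reads, and this limit covers counting error alone.

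The 7 glutelin loci whose names could be checked against RefSeq were the largest named group. They held 19.2% of all RPKM in WT-1, 18.2% in WT-2 and 17.6% in WT-3, a mean of 18.3 ± 0.798%. All 7 stood among the 18 highest loci of the table, and 6 were above 10000 RPKM. The glutelin names GluB-1, GluB-6, GluB-7 and GluC were tried and could not be checked. The loci they were tried at, LOC_Os02g15169, LOC_Os02g15070, LOC_Os02g14600 and LOC_Os02g25640, are outside the list. In that order, these loci held 5.996, 0.227, 0.812 and 1.85% of all RPKM on average. The list, and any ratio to it, is therefore partial.

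GluA-3 (LOC_Os03g31360; chromosome 3, 17864278 to 17866253) was the highest named glutelin. It had 23797 RPKM in WT-1, 24836 in WT-2 and 21061 in WT-3 and made up 23.2 ± 1.255% of the list. The neighbouring genes GluB-5 (LOC_Os02g16820) and GluB-4 (LOC_Os02g16830), 3481 bases apart on chromosome 2, had nearly the same level. GluB-4 had 18039, 19314 and 18684 RPKM in WT-1, WT-2 and WT-3, and GluB-5 had 19003, 18309.7 and 17569 RPKM. The libraries did not put this pair in a fixed order, as GluB-5 was higher in WT-1 and GluB-4 in WT-2 and WT-3. GluA-1 (LOC_Os01g55690) had 15672, 13371 and 12922 RPKM in WT-1, WT-2 and WT-3, and its span overlaps that of another locus on the opposite strand. GluA-2 (LOC_Os10g26060) had 11703, 10549 and 9752 RPKM.

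The glutelins did not share an order of libraries. Both GluA-1 and GluA-2 were highest in WT-1, whereas GluB-2 (LOC_Os02g15150) was lowest there, with 10421 RPKM in WT-1, 11975 in WT-2 and 13177 in WT-3. GluD-1 (LOC_Os02g15090) was the lowest of the list, with 3116, 3641 and 3174 RPKM, or 3.31 ± 0.254% of it. These genes are close relatives, and the sources used here do not say how reads that fit several of them were counted, so the split between them is less certain than their sum.

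Other highly expressed loci could not be named from the sources used here. LOC_Os02g15169 (chromosome 2, 8465035 to 8467151), the highest locus of all, lies 16.3 kilobases from GluB-2. It had 31732 RPKM in WT-1, 33391 in WT-2 and 33213 in WT-3, and its coefficient of variation (CV, SD over mean) was 2.78%. LOC_Os02g25640 had 10167, 10840.3 and 9309 RPKM, and LOC_Os02g14600 had 3614, 4871 and 4861 RPKM. LOC_Os05g41970, of 840 bases, had 6447 RPKM in WT-1, 5468 in WT-2 and 4059.9 in WT-3, so WT-1 was highest and WT-3 lowest. The same order held at LOC_Os12g16890, with 3891, 3417 and 2887 RPKM, and at LOC_Os06g47230 and LOC_Os05g34510. LOC_Os11g33000 had 4251 RPKM in WT-1, against 2399 in WT-2 and 2244 in WT-3, so WT-1 was the library that stood apart there.

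**Figure D2:**
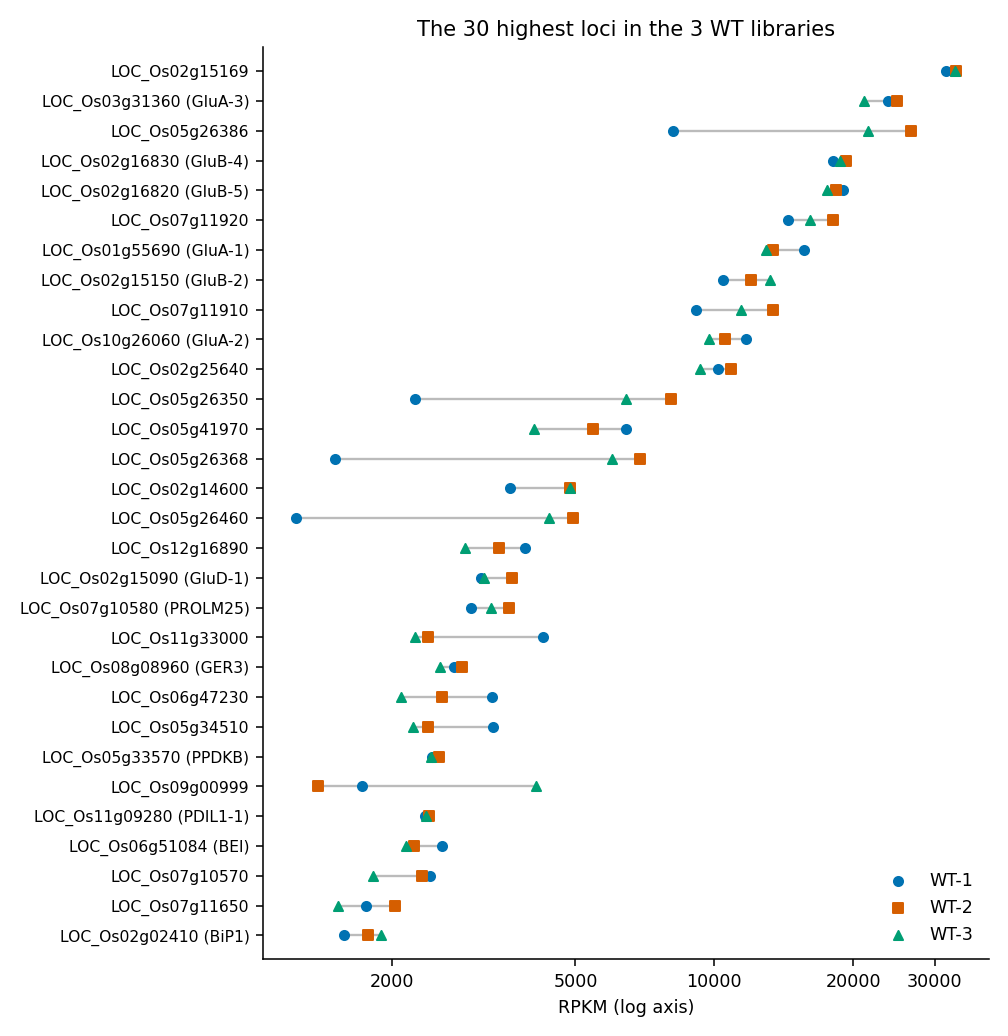
RPKM (x axis, log scale) of the 30 highest loci by mean (y axis, highest at the top), with 1 symbol per WT library and a grey line over their range; names in brackets are those checked against RefSeq. At most loci the libraries lie close together, whereas the 4 loci of the chromosome 5 cluster have WT-1 far below the others and LOC_Os09g00999 has WT-3 far above.

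PROLM25 (LOC_Os07g10580; chromosome 7, 5741849 to 5742542), a prolamine, was the only prolamine whose name could be checked. It had 2964 RPKM in WT-1, 3591 in WT-2 and 3273 in WT-3, rank 19 of all loci. Its neighbour LOC_Os07g10570, separated by 4002 bases, had 2416, 2322 and 1819 RPKM. The order of the libraries differed between these neighbours, WT-1 being lowest at PROLM25 and highest at LOC_Os07g10570.

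A pair of short unnamed loci on chromosome 7, LOC_Os07g11920 and LOC_Os07g11910, of 632 and 634 bases and 1372 bases apart, ranked 6 and 9. LOC_Os07g11920 had 14409 RPKM in WT-1, 18090.1 in WT-2 and 16112 in WT-3, and LOC_Os07g11910 had 9118, 13410.2 and 11404 RPKM. WT-1 was lowest and WT-2 highest at both. Their neighbour LOC_Os07g11900 was far lower, with 229, 318 and 232 RPKM. The 3 loci together held 4.47% of all RPKM in WT-1, 5.67% in WT-2 and 5.06% in WT-3.

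The list whose share varied most between libraries relative to its mean, at a CV of 50.6%, was a cluster of 22 loci on chromosome 5, from LOC_Os05g26240 to LOC_Os05g26770, each spanning under 1000 bases. No locus of the cluster could be named from the sources used here. The cluster held 2.81% of all RPKM in WT-1, 9.12% in WT-2 and 7.74% in WT-3, so WT-1 stood far below the others, which lay close together. Its mean share was 6.56 ± 3.32%, and 8.43% without WT-1. Set against the named glutelins, the summed RPKM of the cluster was 14.6% of theirs in WT-1, 50.2% in WT-2 and 44.0% in WT-3. By recovered reads, which are not divided by exon length, it was 5.36% of theirs in WT-1, 18.4% in WT-2 and 16.1% in WT-3.

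Expression within the cluster was uneven. LOC_Os05g26386 (15338155 to 15338822) carried 52.5 ± 1.96% of it, with 8141 RPKM in WT-1, 26617 in WT-2 and 21534 in WT-3. It was therefore the second highest locus of the table in WT-2 and WT-3. LOC_Os05g26350 had 2248, 8063 and 6431 RPKM, and LOC_Os05g26368 had 1509, 6916 and 5988 RPKM. LOC_Os05g26460 had 1240.4 RPKM in WT-1, against 4951 in WT-2 and 4387 in WT-3. Lower members followed the same order of libraries: LOC_Os05g26720 averaged 1527 ± 604 RPKM, LOC_Os05g26750 averaged 1027 ± 468 RPKM and LOC_Os05g26770 averaged 738 ± 368 RPKM. At the other end, 6 of the 22 loci were listed at 0 in all libraries and 2 more stayed under 1 RPKM. LOC_Os05g26377 overlaps LOC_Os05g26386 on the same strand and had 15.4 ± 5.10 RPKM, so reads may have been divided between them.

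All 14 cluster loci of at least 1 RPKM were lowest in WT-1, among them LOC_Os05g26480, which was at 0 in both WT-1 and WT-3. Over all loci of at least 1 RPKM, 29.6% were lowest in WT-1. The ratio of WT-1 to the mean of WT-2 and WT-3 had a median of 0.356 over these loci and ranged up to 0.787. The same ratio had a median of 0.977 over all 445 loci of at least 100 RPKM and of 1.04 over the loci of at least 1 RPKM. Shares within the cluster moved less than its level did. LOC_Os05g26386 made up 54.6% of it in WT-1, 52.0% in WT-2 and 50.8% in WT-3. LOC_Os05g26368 made up 10.1% of it in WT-1, 13.5% in WT-2 and 14.1% in WT-3.

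Other groups moved between the same libraries. The embryo and aleurone list summed to 664 RPKM in WT-1, 528 in WT-2 and 449 in WT-3, and the 7 of its 9 members that reached 1 RPKM were all higher in WT-1 than the mean of the others, as were 56.8% of all loci of at least 1 RPKM. The other 2, the dehydrins RAB16C and RAB16D, stayed at or under 0.402 RPKM on average. The part of these tissues in the low cluster values of WT-1 was not tested.

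**Figure D3:**
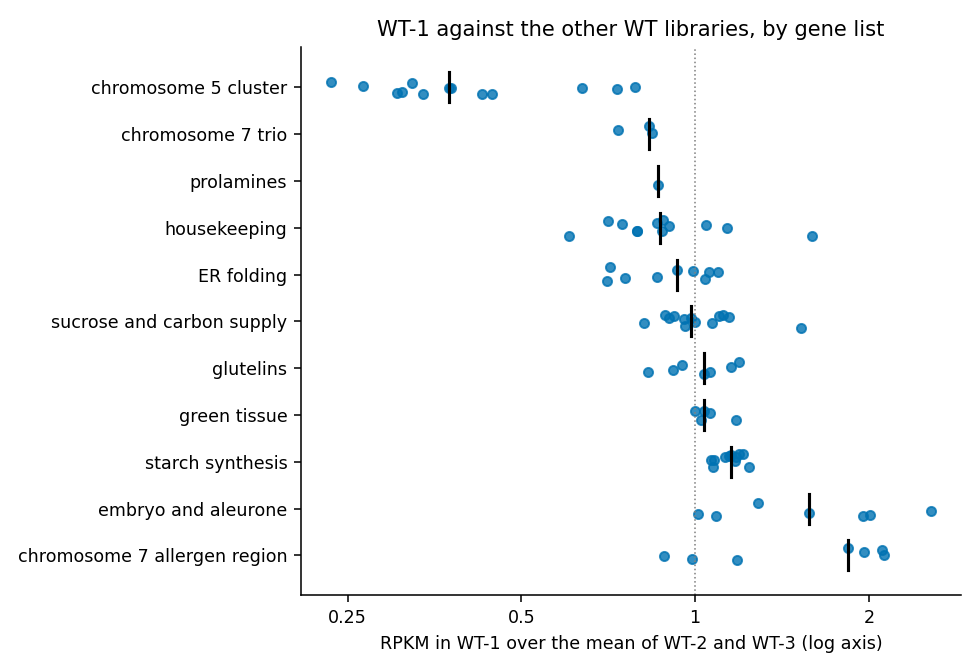
Ratio of RPKM in WT-1 to the mean of WT-2 and WT-3 (x axis, log scale) for each locus of at least 1 RPKM, by gene list (y axis), with a black bar at the median and a dotted line at 1; LOC_Os05g26480, at 0 in WT-1, has no point. The chromosome 5 cluster has a median of 0.356, the glutelins 1.04, the starch synthesis list 1.16, and the embryo and aleurone list 1.58.

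Seed allergens of the albumin type are small storage proteins encoded on chromosome 7. A region of 13 short loci there, from LOC_Os07g11310 to LOC_Os07g11650, holds 3 checked allergen names, RAG2, RA16 and RA5. It held 1.03% of all RPKM in WT-1, 0.947% in WT-2 and 0.728% in WT-3. RA5 (LOC_Os07g11510) had 1553, 1935 and 1580.3 RPKM and the unnamed LOC_Os07g11650 had 1759, 2035 and 1526 RPKM, both highest in WT-2. RAG2 (LOC_Os07g11380) had 1089 RPKM in WT-1, 643 in WT-2 and 393 in WT-3. RA16 (LOC_Os07g11410) had 232, 126 and 111 RPKM, and the unnamed LOC_Os07g11330 had 620.0, 416 and 258 RPKM. The region therefore mixed loci with WT-1 on top, by about the factor 2.10 at RAG2, and loci without that order. A further 5 of the 13 loci were listed at 0 in all libraries.

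The ER folding list held 0.949 ± 0.0392% of all RPKM with a CV over libraries of 4.13%. PDIL1-1 (LOC_Os11g09280), the protein disulfide isomerase that rice needs to keep glutelin precursors apart from prolamines in the ER, led it with 2366 RPKM in WT-1, 2408 in WT-2 and 2370.1 in WT-3. Its CV was 0.983%, against a median of 10.9% over all loci of at least 100 RPKM. PDIL1-1 made up 75.6 ± 3.02% of the 8 checked protein disulfide isomerases. PDIL1-4 followed with 527 ± 104 RPKM, lowest in WT-1 and highest in WT-3, and PDIL2-3 with 110.3 ± 20.4 RPKM. PDIL1-3 was the lowest, at 0.384 ± 0.303 RPKM.

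BiP1 (LOC_Os02g02410), the main ER chaperone of the HSP70 type, had 1575 RPKM in WT-1, 1775 in WT-2 and 1893 in WT-3. It made up 99.96 ± 0.0152% of the 3 checked BiP genes, as BiP4 averaged 0.527 RPKM and BiP2 0.0702 RPKM. CRT1, a calreticulin, had 287 ± 21.97 RPKM. Downstream of the ER the checked genes were far lower. VPE1, the protease that cleaves proglutelin in the vacuole, had 127 ± 14.0 RPKM. RAB5A, a small GTPase of glutelin transport, had 17.2 ± 1.97 RPKM and its exchange factor VPS9A 14.9 ± 1.32 RPKM.

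The 11 checked genes of starch synthesis held 1.05% of all RPKM in WT-1, 0.887% in WT-2 and 0.858% in WT-3. Their summed RPKM was 5.08 ± 0.349% of that of the named glutelins, and by recovered reads their sum was 10.8 ± 0.766% of theirs. Both lists are partial, as BEIIb, BEIIa, AGPL2 and SSIIIa, like some glutelin names, could not be checked. The ratio therefore covers the checked genes alone. All 11 checked starch genes were highest in WT-1, with ratios to the mean of the others between 1.06 and 1.24. Of all loci of at least 1 RPKM, 43.8% were highest there too. BEI (LOC_Os06g51084), a starch branching enzyme, led these genes with 2569.8 RPKM in WT-1, 2240.1 in WT-2 and 2149.5 in WT-3. AGPS2, a small subunit of ADP-glucose pyrophosphorylase, which makes the glucose donor, had 1774, 1608 and 1462 RPKM. Wx, the granule-bound synthase that makes amylose, had 633, 604 and 576 RPKM.

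The other checked genes of the pathway were lower. ISA1, a debranching enzyme, had 316 ± 24.8 RPKM and the soluble starch synthase SSI 91.8 ± 12.5 RPKM. Among the 3 checked SSII genes, SSII-3 made up 89.8 ± 0.635% with 87.8 ± 9.07 RPKM, whereas SSII-1 had 8.13 ± 1.12 RPKM and SSII-2 1.86 ± 0.204 RPKM. The disproportionating enzymes DPE2 and DPE1 had 22.3 ± 0.886 and 9.996 ± 0.616 RPKM, and the starch-binding protein FLO6 had 7.91 ± 0.703 RPKM.

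The list of sucrose transport, sucrose breakdown and carbon metabolism held 0.689 ± 0.00872% of all RPKM, the smallest spread between libraries of any list relative to its mean, at a CV of 1.27%. PPDKB (LOC_Os05g33570), pyruvate orthophosphate dikinase, which interconverts pyruvate and phosphoenolpyruvate within cells, made up 65.5 ± 0.467% of it with 2441 RPKM in WT-1, 2535 in WT-2 and 2429 in WT-3. The 17 other loci of the list held 0.238 ± 0.00251% of all RPKM. Of the 7 checked sucrose synthases, which split imported sucrose, SUS4 was highest with 326, 363 and 317 RPKM, or 41.1 ± 1.38% of the family. SUS3 had 238 ± 9.52 RPKM and SUS2 213 ± 12.8 RPKM, and SUS1 was far lower at 28.2 ± 2.69 RPKM. The remaining members were near or at 0, with SUS6 at 0.408 RPKM, SUS7 at 0.0186 RPKM and SUS5 listed at 0.

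Each transporter family also had a leading member. SWEET11, a sucrose exporter, had 315, 334 and 351 RPKM in WT-1, WT-2 and WT-3 and made up 81.4 ± 1.42% of the 4 checked SWEET genes. SWEET15 had 42.1 ± 6.49 RPKM, SWEET14 22.7 ± 1.72 RPKM and SWEET4 11.2 ± 0.741 RPKM. SUT1, a sucrose importer of the plasma membrane, had 45.2 ± 2.97 RPKM, or 76.5 ± 0.872% of the 3 checked SUT genes. CIN2, the cell-wall invertase of grain filling, had 20.6 RPKM in WT-1, 13.97 in WT-2 and 13.1 in WT-3. CIN3 was listed at 0 and CIN1 was above 0 in WT-1 alone, at 0.0585 RPKM.

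**Figure D4:**
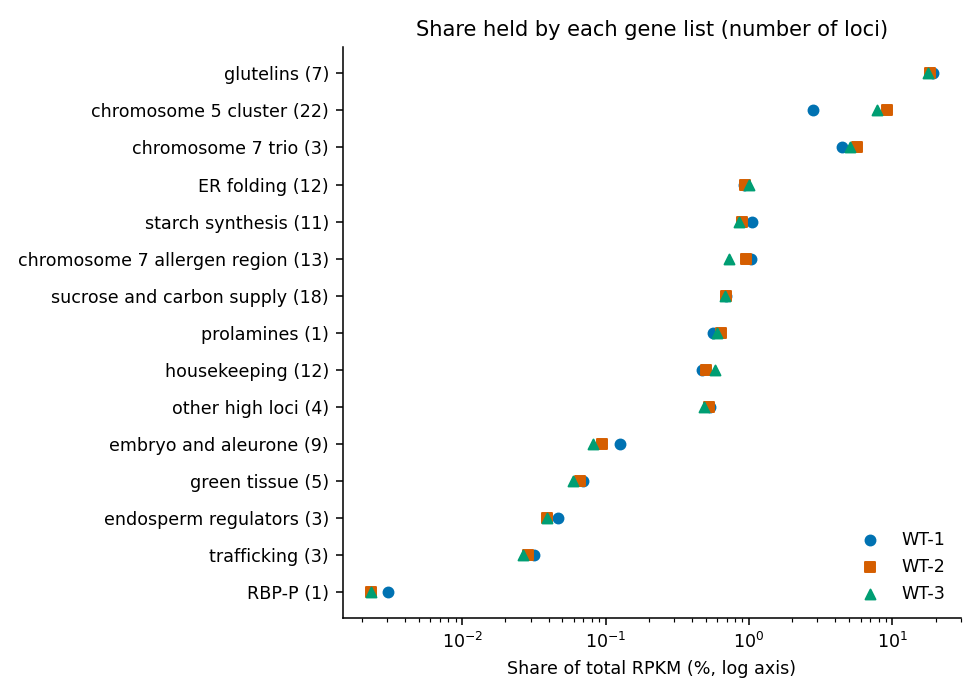
Share of total RPKM (x axis, %, log scale) held by each gene list (y axis, with its number of loci), 1 symbol per WT library. The glutelins lie at 18.3% on average, the chromosome 5 cluster has WT-1 at 2.81% and the other libraries at 7.74% and 9.12%, and the other lists lie at about 1% or below apart from the chromosome 7 trio at 5.07%.

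The 3 checked genes listed as endosperm regulators were detected in every library. The names RPBF and RISBZ1 were also tried and could not be checked. Of the listed regulators, NF-YB1, a transcription factor of the aleurone and endosperm, had 216, 187 and 188 RPKM in WT-1, WT-2 and WT-3. MADS29 had 22.6 ± 3.50 RPKM and MADS6 had 5.57 ± 0.577 RPKM. Genes of green tissue were detected too. The light-harvesting genes CAB1R and CAB2R had 161 ± 13.02 and 105.0 ± 11.3 RPKM, plastocyanin (PETE) had 52.9 ± 5.66 RPKM, and the checked Rubisco small subunit RBCS had 12.8 ± 0.473 RPKM. All 5 green tissue genes together held 0.0651 ± 0.00514% of all RPKM.

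Among embryo and aleurone genes, OLE18, an oleosin of oil bodies, was highest with 358, 357.5 and 301 RPKM in WT-1, WT-2 and WT-3. Late embryogenesis genes varied more between libraries. LEA3 had 155.9 RPKM in WT-1, 68.1 in WT-2 and 53.5 in WT-3, and Em had 92.0, 50.7 and 43.4 RPKM. WT-1 was highest at both, by a factor of 2.56 over the mean of the others at LEA3. The dehydrin RAB16B had 2.27, 1.03 and 1.23 RPKM. VP1, a transcription factor of the embryo and aleurone, had 4.43 ± 0.690 RPKM, and the 1-Cys peroxiredoxin R1C-Prx had 38.5 ± 0.854 RPKM with no such order.

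Genes often used as internal standards did not all stay level. TCTP had 744 ± 28.8 RPKM (CV 3.87%), and ACT1 had 80.1, 88.2 and 89.4 RPKM in WT-1, WT-2 and WT-3. ENO1, the glycolytic enolase, had 258 RPKM in WT-1, 373 in WT-2 and 481 in WT-3, and GAPC3, a cytosolic glyceraldehyde phosphate dehydrogenase, had 477, 565 and 713 RPKM. Both were lowest in WT-1 and highest in WT-3, whereas ACT2 had the opposite order, with 21.5, 15.0 and 11.9 RPKM. Of the 12 checked housekeeping genes, 9 were lowest in WT-1 and 3 were highest there, against 29.6% and 43.8% of all loci of at least 1 RPKM. GER3, a germin-like protein, was the highest named gene outside the storage proteins, with 2731, 2842 and 2542 RPKM. RBP-P itself (LOC_Os01g16090), an RNA-binding protein of storage protein messenger RNAs, had 16.2 RPKM in WT-1, 12.9 in WT-2 and 12.7 in WT-3, rank 4608.

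Spread between libraries differed by abundance class. The median CV was 17.2% between 1 and 10 RPKM, 9.68% between 10 and 100 RPKM, 10.6% between 100 and 1000 RPKM, 14.4% between 1000 and 10000 RPKM and 9.20% at the 11 loci above. Counting of reads alone would give a median CV of 15.2% between 1 and 10 RPKM and 0.758% between 1000 and 10000 RPKM. Between 1 and 10 RPKM, 58.6% of loci had a CV above their counting value. Counting of whole reads alone would put about 36.8% there with 3 libraries, and steps of 0.5 read make this value approximate. The share was 38.3% above 0 and under 1 RPKM, at a median of 1.5 reads. It was 75.3% between 10 and 100 RPKM and 95.5% between 100 and 1000 RPKM. Above 1000 RPKM every locus with recovered reads lay above its counting value.

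**Figure D5:**
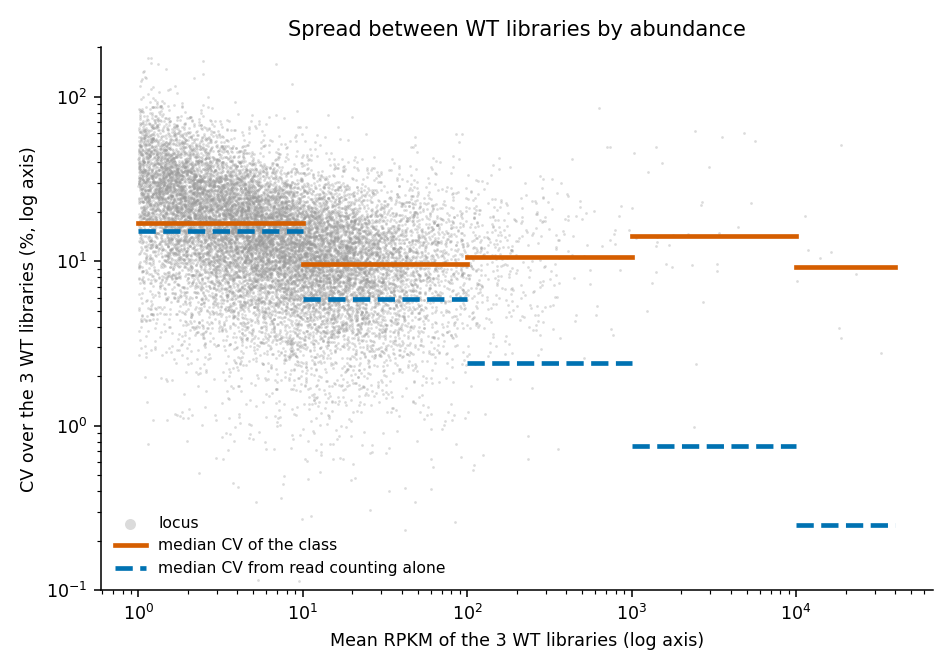
CV over the 3 WT libraries (y axis, %, log scale) against mean RPKM (x axis, log scale) for loci of at least 1 RPKM, as grey points. Solid bars give the median CV of each abundance class, 17.2% between 1 and 10 RPKM. Dashed bars give the median CV that read counting alone would give, 15.2% in that class and 0.2495% at 10000 RPKM and above.

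Among the 445 loci of at least 100 RPKM, the median CV was 10.9%, 205 loci had a CV under 10%, 37 were over 25% and 6 were over 50%. Of these 6, 4 belonged to the chromosome 5 cluster and were lowest in WT-1. Over 2 libraries, where the median CV is lower by construction, it was 7.01% without WT-1, 12.0% without WT-2 and 8.44% without WT-3. By that measure 2 loci were over 50% without WT-1, neither in the cluster, 16 without WT-2 and 8 without WT-3. The loci over 25% numbered 13 without WT-1, 85 without WT-2 and 36 without WT-3. The other 2 of the 6 lie at the start of chromosome 9 and were highest in WT-3. LOC_Os09g00999 (2874 to 5458) had 1728 RPKM in WT-1, 1383 in WT-2 and 4112 in WT-3. LOC_Os09g01000 (6384 to 9310) had 440.01, 214 and 1248 RPKM, the largest CV of all at 85.7%. In RefSeq, in another build, the start of chromosome 9 holds a run of ribosomal RNA genes. Whether LOC_Os09g00999 or LOC_Os09g01000 overlaps them was not tested, nor was the cause of their high values in WT-3. The 8 largest values were completed by LOC_Os11g37270, with 2186 RPKM in WT-1, 1199 in WT-2 and 829 in WT-3, and by LOC_Os05g26770 of the cluster.

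The steadiest loci of at least 100 RPKM lay well below the storage genes. LOC_Os04g38870 had 108.2, 107.2 and 108.2 RPKM in WT-1, WT-2 and WT-3, a CV of 0.540%. LOC_Os10g41160 had 109.6, 108.4 and 109.3 RPKM, and LOC_Os03g60740 had 234, 231 and 233 RPKM. LOC_Os01g09000 and LOC_Os08g40250 had a CV of 0.664% and 0.721%. These were picked as the smallest values among 445 loci, and with 3 libraries a small CV does not show that a locus is stable.

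WT-2 and WT-3 resembled each other most. Over the 16237 loci of at least 1 RPKM, the median absolute difference on the log2(RPKM + 1) scale was 0.17 between WT-2 and WT-3, 0.19 between WT-1 and WT-2 and 0.22 between WT-1 and WT-3. A difference of at least 2-fold on that scale was seen at 0.665%, 1.24% and 1.93% of these loci. Pearson's r across these loci on the same scale was 0.983, 0.979 and 0.973 for the same pairs, as a description, since the loci of a library share its depth and its total. Among the 45 loci of at least 1000 RPKM, WT-1 lay more than 1.5-fold above both other libraries at 2 and more than 1.5-fold below both at 7. WT-3 stood apart in this way at 1 locus and WT-2 at none. Most of the 7 belong to the chromosome 5 cluster already described: LOC_Os05g26386, LOC_Os05g26350, LOC_Os05g26368, LOC_Os05g26460, LOC_Os05g26720 and LOC_Os05g26750. Outside it lay LOC_Os02g15070, with 757 RPKM in WT-1, 1402 in WT-2 and 1587 in WT-3.

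Expression was unevenly placed on the chromosomes. Chromosome 2 held 9.60% of the loci and 25.4 ± 0.235% of all RPKM, with 8 of the 30 highest loci. Chromosome 5 held 9.75% of all RPKM in WT-1, 15.2% in WT-2 and 13.8% in WT-3, and 7 of the 30 highest. Chromosome 7 held 11.4 ± 0.403%, and chromosome 4, with 9.50% of the loci and none of the 30 highest, held 4.15 ± 0.269%. Without the 30 highest loci, chromosome 2 held 12.4 ± 0.246% of the remaining RPKM and chromosome 3 the most, 14.3 ± 0.0506%. On chromosome 10, GluA-2 alone made up 39.6% of the RPKM. Of the 30 highest loci, 13 had another of the 30 within 50 kilobases, and these 13 held 23.4% of all RPKM in WT-1, 30.4% in WT-2 and 28.6% in WT-3.

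Because RPKM divides by exon length, short loci weigh more in it than in reads. Among loci of at least 1 RPKM, those of over 500 and up to 1000 bases held 21.6% of all RPKM in WT-1, 27.1% in WT-2 and 25.1% in WT-3, and 10.5 ± 1.26% of the recovered reads. Those of over 2000 and up to 4000 bases held 19.4 ± 1.03% of RPKM and 31.2 ± 0.981% of reads. Of the 28 loci among the 30 highest with a recovered length, 12 were under 1000 bases. The 2 without one, PROLM25 and LOC_Os07g10570, span 694 and 972 bases. Among 16235 loci of at least 1 RPKM with a length, 344 had up to 500 bases and 1949 over 500 and up to 1000. Ranked by reads, LOC_Os02g15169 stayed first with 6.44 ± 0.168% and GluA-3 second with 4.34 ± 0.363%. BEI, of 4955 bases, ranked 10 by reads and 27 by RPKM. The 10 highest by reads held 29.5 ± 0.888% of all reads and shared 8 loci with the 10 highest by RPKM.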

How the data were processed

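Values for 55986 loci were deposited as RPKM, with chromosome and region, per the file headers. Per the labels' protocols, total RNA was turned into libraries by a ScriptSeq v2 kit. The genome build, the aligner, the counting tool and its use of strand are not stated (not given in the sources used here), and coordinates are printed as in the table. Library totals and read numbers were worked out from the steps between RPKM values (0.5 read each), and an exon length was found for 27103 of 27105 loci above 0 in WT. The shortest length that fitted was taken, so some read numbers may be too small. PROLM25 and LOC_Os07g10570 had no length and stay out of read shares. The columns of the other genotypes served for exon lengths alone, and 0 columns of per-sample values were left unused.

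Shares are per library, as the percent of the summed RPKM, then averaged. No test was run, since 1 group is described, and CV and SD measure the spread between the 3 biological repeats. Counting CV is 1 over the square root of the mean reads and covers counting error only, as reads carry no molecular identifiers. Read recovery and CV were tested on simulated data.

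Names came from RefSeq (ASM3414082v1). A name counted as checked where RefSeq has it on the same chromosome with a span of 0.8 to 1.25 times that in the table, in the same order and at a distance to the nearest checked gene within 20%. Of 109 names tried, 89 were checked, and other loci are given by identifier. The rule for named loci took the 30 highest, all checked list members, and the 8 largest and 5 smallest CV among loci of at least 100 RPKM. Members and lists were chosen with earlier results of these data known. Promoter sequences were not used here. Alternatives were leaving out each library, recovered reads, the median, a minimum of 1 RPKM, a total without the 50 highest loci, other detection thresholds and median-ratio rescaling. Computations ran in Python 3.11.15 with pandas 2.3.3 and numpy 2.4.6, and figures in matplotlib 3.10.9.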

Additional observations from a re-analysis of the deposited data

How the results depend on the processing

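No paired analysis was possible because 1 group is described and no result comes from a test. In all, 40 results were recomputed, giving 264 values, of which 202 stayed within the spread between libraries (1 SD, or 1.5 times for a count). For the share of a fixed set of loci, leaving out 1 of 3 libraries always stays within 1 SD. The same holds for the median of the libraries. Leaving out WT-1, WT-2 and WT-3 gave 38, 40 and 39 of the 202, and the median 38. The total therefore does not measure robustness.

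Replacing RPKM by recovered reads, which removes the division by exon length, moved 31 of 37 results. The share of the highest locus became 6.44%, of the 10 highest 29.5%, of the 50 highest 44.0%, of the 100 highest 48.0% and of the 1000 highest 67.3%. The number of loci holding 50% became 139. Loci of at least 1000 RPKM held 41.3% of reads and loci of 10 to 100 RPKM 33.2%. The glutelins held 19.2%, the chromosome 5 cluster 2.53%, the chromosome 7 trio 1.92%, the allergen region 0.425%, starch synthesis 2.06% and ER folding 1.249%. Chromosome 2 held 27.5% and chromosome 5 held 9.21%. PROLM25 has no value there.

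Against a total without the 50 highest loci, loci of 10 to 100 RPKM came to 54.2%, the glutelins to 36.2%, the chromosome 5 cluster to 13.2%, the trio to 10.1%, the allergen region to 1.78%, starch synthesis to 1.84% and ER folding to 1.88%. The gene lists kept their members among those 50 loci, so their values are ratios to that total and not shares of it. Chromosome 2 without the 50 highest loci held 11.8% and chromosome 5 held 9.13%. Loci of at least 1000 RPKM have no value there.

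Leaving out each library gave 5.27 to 8.43% for the chromosome 5 cluster, the highest without WT-1. The number of loci holding 50% ranged from 47 to 66. The median CV, which over 2 libraries is lower than over 3 by construction, ranged from 9.69 to 12.7% at 1 RPKM and above and from 7.01 to 11.99% at 100 RPKM and above, both lowest without WT-1. Among loci of at least 10 RPKM the median CV was 9.74%, against 13.6% among those of at least 1 RPKM. The median of the libraries, the minimum of 1 RPKM, the detection thresholds and median-ratio rescaling moved no result past the spread. For the share of a fixed set of loci the median could not do so. The minimum of 1 RPKM took away loci that held 0.561% of all RPKM, so it could move shares little. Depth limits the low classes, and a value of 0 sets a limit of 3 reads.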
